A study of Mus musculus with 4 samples.

Results

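The neuronal splicing and RNA-binding regulators described here are 10 genes of known function, listed by name: *Nova1*, *Nova2*, *Rbfox1*, *Rbfox2*, *Rbfox3*, *Elavl2*, *Elavl4*, *Ptbp1*, *Ptbp2* and *Srrm4*. They are 10 of the 55421 genes in the count files. Their RNA was measured in cells of the prefrontal cortex (PFC) of wild-type C57BL/6 mice taken at birth (P0), dissociated and cultured for 10 days in a B27-supplemented neurobasal medium. The comparison was between 2 libraries from cultures that received FGF2, a growth factor for neural progenitors and glia, at 5 ng/mL, and 2 libraries from cultures without it. The cultures were unsorted mixtures of cells, and the number and sex of the mice are not given in the sources used here. The paper calls the replicates of its human GW11 and GW20 samples biological and those of others technical, without naming the mouse libraries. The libraries of a group may thus come from 1 culture, and the p-values may then cover only technical spread.

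RNA-binding proteins of these families set much of the neuron-specific splicing of the brain. In progenitors and glia Ptbp1 represses neuronal exons, and when neurons form, miR-124 and the loss of Ptbp1 allow Ptbp2 to accumulate, while Srrm4 (nSR100) turns on neuronal microexons. Nova proteins, the Rbfox family, which includes the neuronal marker NeuN (Rbfox3), and the neuronal Elavl (Hu) proteins then act on synaptic, channel and cytoskeletal transcripts, binding clustered YCAY elements, UGCAUG elements and U-rich elements respectively.

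All 10 regulators differed between cultures with and without FGF2. *Srrm4*, *Rbfox3*, *Nova2*, *Rbfox2*, *Rbfox1*, *Elavl2* and *Elavl4* fell with FGF2, by 0.30 to 0.93 on the log2 scale, whereas *Ptbp1*, *Nova1* and *Ptbp2* rose by 0.35, 0.34 and 0.14. Thus 10 of 10 passed an adjusted p-value of 0.05 in edgeR's quasi-likelihood test, where 40.5% of the 17144 tested genes did, with 3 higher against 20.7% of tested genes and 7 lower against 19.9%. The regulators were chosen with earlier results of these data known, so setting them beside all tested genes is no test of an excess. The median log2 fold change was -0.43 over the 10 regulators and -0.0008 over all tested genes. In all 10 the libraries of the groups did not overlap, as for 67.1% of tested genes (3 higher against 33.6% and 7 lower against 33.4%). At an adjusted p of 0.01, 9 of 10 passed against 31.7% of tested genes, 2 higher against 16.4% and 7 lower against 15.3%, and *Ptbp2* did not. DESeq2 called 8 of 10 against 23.2% of its genes, 2 higher against 12% and 6 lower against 11.2%, without *Ptbp2* and *Elavl4*. All 10 passed the filter on low counts, with 361 to 5736 counts per library. Each value is a share of its library's counts, so a gene's value also falls when other cells contribute more RNA. In bulk RNA this, fewer cells of a type and less RNA per cell cannot be told apart. A lower value of a neuronal gene can be any of these. The counts are per gene, and the use of single exons was not measured.

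Levels below are edgeR's CPM, in which the count of a gene is divided by its library's gene total after TMM scaling, given for replicates 1 and 2, and SD is over 2 libraries. Counts on genes totalled 9166432 to 10799886 per library, and 3 counts equalled 0.277 to 0.331 CPM. The levels of the 10 genes in each library are plotted first.

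**Figure D1:**
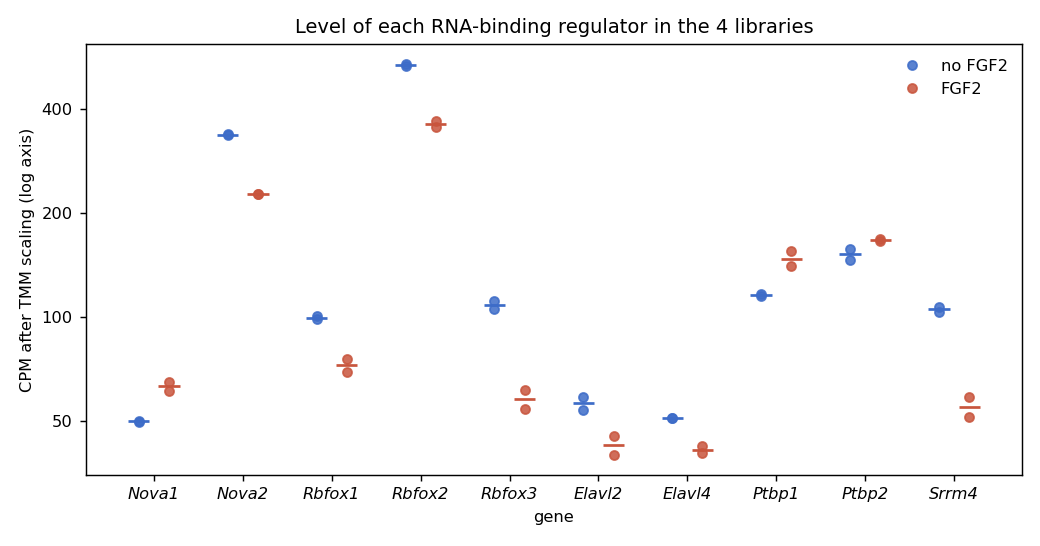
Level of each regulator in CPM (log axis) in the 4 libraries, blue without FGF2 and red with FGF2; points are libraries and bars are group means. The groups are apart for every gene, with *Ptbp1*, *Ptbp2* and *Nova1* higher and the other 7 lower with FGF2.

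The start regions of the genes whose responses went furthest apart within or between families were taken from RefSeq (GRCm38.p6), which had entries for 9 of the 10 regulators. Each stretch is the part of the 250 bases before the RefSeq start that lies outside the gene's own exons, 5′ to 3′ on the gene's strand. They are *Nova1* at chr12:46818930-46819017 (minus strand, 88 bases), *Nova2* at chr7:18925638-18925887 (plus strand), *Ptbp1* at chr10:79854182-79854426 (plus strand, 245 bases) and *Srrm4* at chr5:116591818-116592067 (minus strand). Capitals mark an E-box, CAGCTG, the motif of basic helix-loop-helix proneural factors.
Nova1: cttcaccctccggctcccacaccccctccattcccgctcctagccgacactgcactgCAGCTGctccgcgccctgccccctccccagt
Nova2: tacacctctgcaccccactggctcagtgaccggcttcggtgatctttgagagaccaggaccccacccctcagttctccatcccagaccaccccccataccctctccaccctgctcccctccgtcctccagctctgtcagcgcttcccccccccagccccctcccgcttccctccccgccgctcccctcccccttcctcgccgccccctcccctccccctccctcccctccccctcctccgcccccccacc
Ptbp1: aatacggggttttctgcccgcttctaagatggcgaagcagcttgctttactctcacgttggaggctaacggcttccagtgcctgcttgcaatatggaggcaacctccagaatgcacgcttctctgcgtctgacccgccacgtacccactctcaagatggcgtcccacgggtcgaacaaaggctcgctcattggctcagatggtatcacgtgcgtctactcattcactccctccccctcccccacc
Srrm4: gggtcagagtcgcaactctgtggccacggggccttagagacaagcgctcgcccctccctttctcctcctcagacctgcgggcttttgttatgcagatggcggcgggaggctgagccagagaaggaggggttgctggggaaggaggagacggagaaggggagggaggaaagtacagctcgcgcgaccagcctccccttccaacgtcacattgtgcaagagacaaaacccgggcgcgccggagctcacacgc

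Over all 32851 RefSeq windows of 250 bases the median GC content was 52.4% and the median number of CpG dinucleotides was 6. The *Srrm4* stretch had 63.2% GC and 17 CpG, that of *Nova2* 71.2% and 10, that of *Ptbp1* 56.7% and 15, and the shorter one of *Nova1* 70.5% and 5. Both strands of the full windows were searched for 4 motifs. The E-box CAGCTG stood in windows of *Nova1*, *Elavl4* and *Rbfox1* and in 13% of all windows. The 9 regulators had 18 windows, some of them overlapping, so a count of genes cannot be set against a share of windows. The right part of the RE1 element of the repressor REST, GGACAGC, stood in a window of *Ptbp2* that lies within the gene's own exons and in 5.28% of all windows. The left part, TTCAGCACC (0.301% of windows), and the cAMP response element TGACGTCA (1.55%) were in no window of the regulators. Only these exact letters were searched, and with motifs this rare their absence from 18 windows says little.

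*Nova1* (chr12:46694517-46818929, minus strand; ENSMUSG00000021047; coordinates of genes are mm10) and *Nova2* (chr7:18925888-18965319, plus strand; ENSMUSG00000030411) encode KH-domain proteins that regulate splicing of synaptic transcripts. *Nova1* was at 64.9 and 61.2 CPM with FGF2 and at 49.9 and 49.8 CPM without. It rose 1.26-fold (log2 0.34 ± 0.08, SE; adjusted p = 2.9e-04). *Nova2*, the paralog that predominates in the neocortex, was at 226.1 and 226.9 CPM with FGF2 and at 335.2 and 337.2 CPM without. It fell by 0.57 ± 0.04 (SE) on the log2 scale to 0.674 of its level without FGF2 (adjusted p = 2.8e-36). The paralogs thus moved in opposite directions, and the libraries of a group differed far less than the groups. The longest *Nova2* transcript matches a transcript of Gm26821 over 2048 bases at 100% identity. No entry of that name stood among the genes counted, and its bearing on the *Nova2* count was not tested. In the Gm33869 entry, which shares exonic positions with *Nova1* on the same strand, 46 and 62 counts stood with FGF2 against 15 and 33 without (log2 1.34 ± 0.32; adjusted p = 1.2e-04), and HTSeq leaves reads in shared positions uncounted as ambiguous.

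The Rbfox family reads the same UGCAUG element through a nearly identical RNA recognition motif, and all 3 genes fell with FGF2. *Rbfox1* (chr16:5885355-7411526, plus strand; ENSMUSG00000008658) was at 75.5 and 69.2 CPM with FGF2 and at 98.4 and 100.3 CPM without (log2 -0.46 ± 0.07, SE; adjusted p = 1.2e-09). *Rbfox2* (chr15:77078990-77307004, minus strand; ENSMUSG00000033565), the member also used outside neurons, was at 368.0 and 353.2 CPM with FGF2 and at 540.1 and 529.8 CPM without (log2 -0.57 ± 0.04; adjusted p = 6.9e-47). *Rbfox3* (chr11:118489762-118911597, minus strand; ENSMUSG00000025576), whose protein NeuN marks postmitotic neurons, was at 61.5 and 54.3 CPM with FGF2 and at 111.3 and 105.3 CPM without. Its level with FGF2 was 0.534 of that without (log2 -0.90 ± 0.07; adjusted p = 2.4e-33). *Rbfox3* had the largest fall of the family. The most similar stretch of the transcripts of *Rbfox1* and *Rbfox2* spanned 413 bases at 80.4% identity.

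*Elavl2* (chr4:91250763-91400785, minus strand; ENSMUSG00000008489) and *Elavl4* (chr4:110203722-110351909, minus strand; ENSMUSG00000028546) encode HuB and HuD, which stabilise and splice U-rich transcripts of neurons. *Elavl2* was at 39.8 and 45.3 CPM with FGF2 and at 58.6 and 53.7 CPM without (log2 -0.40 ± 0.09, SE; adjusted p = 4.8e-05). *Elavl4* was at 42.2 and 40.4 CPM with FGF2 and at 50.8 and 50.8 CPM without (log2 -0.30 ± 0.09; adjusted p = 0.0042). These were the smallest falls among the 7 genes that fell, and for *Elavl4* DESeq2 gave an adjusted p of 0.1. The order of *Elavl2* and *Rbfox1* depended on single libraries. It reversed without FGF2 replicate 2 (log2 -0.50 and -0.40) and without no-FGF2 replicate 2 (-0.47 and -0.45), and held without replicate 1 of either group.

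*Ptbp1* (chr10:79854427-79864771, plus strand; ENSMUSG00000006498) and *Ptbp2* (chr3:119718742-119784466, minus strand; ENSMUSG00000028134) encode the polypyrimidine tract-binding proteins PTB and nPTB. *Ptbp1* was at 154.5 and 140.1 CPM with FGF2 and at 116.4 and 114.6 CPM without. It rose 1.27-fold (log2 0.35 ± 0.06, SE; adjusted p = 2.6e-08). *Ptbp2* was at 165.8 and 167.9 CPM with FGF2 and at 157.1 and 145.8 CPM without, a rise of 1.10-fold (log2 0.14 ± 0.05; adjusted p = 0.027). The rise of *Ptbp2* did not hold up under 6 of 12 alternatives. Its log2 fold change was 0.15 without FGF2 replicate 1 (adjusted p = 0.051), 0.13 without FGF2 replicate 2 (0.10) and 0.08 without no-FGF2 replicate 2 (0.45), and the adjusted p was 0.057 and 0.083 with total count and upper quartile scaling and 0.23 with DESeq2. A pseudogene of *Ptbp1*, Gm4900, matches it over 890 bases at 97% identity and held 1 to 3 counts per library. *Plppr3*, which overlaps exons of *Ptbp1* on the opposite strand, held 462 and 521 counts with FGF2 and 838 and 820 without. The counting kept strands apart as far as the files show: of genes at least 98% covered by another gene, 166 of 486 had a count where the cover was on the opposite strand and 8 of 820 where it was on the same strand.

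*Srrm4* (chr5:116439275-116591817, minus strand; ENSMUSG00000063919) had the largest fall of the 10. It was at 58.6 and 51.4 CPM with FGF2 and at 106.8 and 103.2 CPM without. Its level with FGF2 was 0.523 of that without (log2 -0.93 ± 0.07, SE; adjusted p = 2.4e-34). The libraries with FGF2 were both far below the libraries without.

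**Figure D2:**
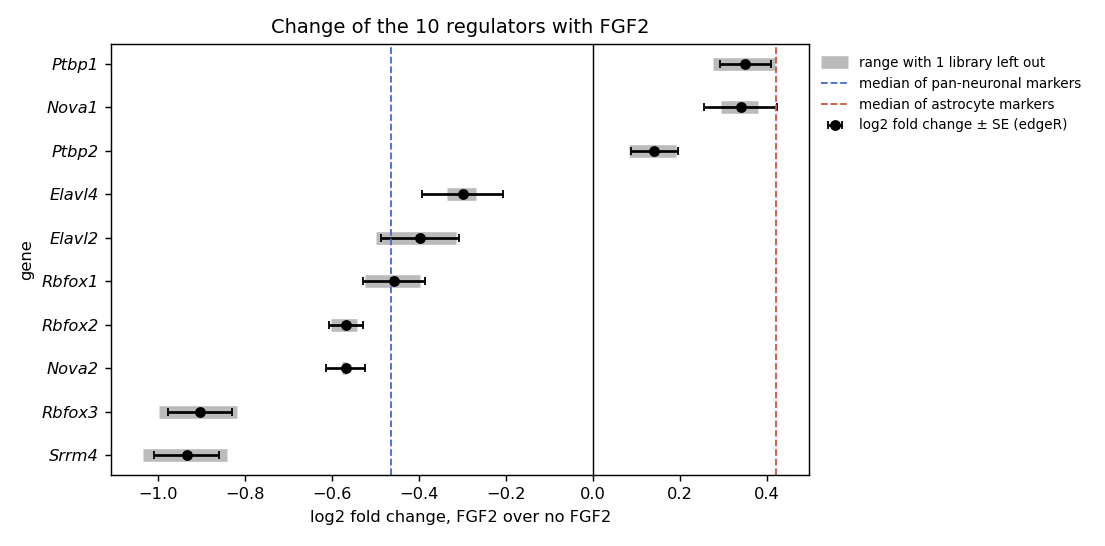
Log2 fold change (FGF2 over no FGF2) of each regulator with its SE from edgeR; grey bars give the range when 1 library is left out, and dashed lines the medians of 12 pan-neuronal (blue) and 9 astrocyte (red) markers. *Srrm4*, *Rbfox3*, *Nova2* and *Rbfox2* lie below the pan-neuronal median of -0.46, *Srrm4* and *Rbfox3* the furthest, and *Ptbp1*, *Nova1* and *Ptbp2* lie above 0.

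With 1 library left out in turn, every regulator kept its direction, and *Srrm4* ranged from -1.04 to -0.84 and *Rbfox3* from -0.999 to -0.82 on the log2 scale. The calls of 8 of the 10 held under all 12 alternatives.

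The balance between paralogs was taken within each library as a log2 ratio of counts, which needs no scaling between libraries. For *Nova1* to *Nova2* it was -1.80 and -1.89 with FGF2 and -2.75 and -2.76 without, a difference of 0.91, or 1.88-fold. For *Ptbp2* to *Ptbp1* it was 0.10 and 0.26 with FGF2 and 0.43 and 0.35 without. The difference of -0.21 lay between -0.29 and -0.13 with 1 library left out, the latter without FGF2 replicate 1. The ratio is of counts, not of levels per length, so its sign does not say which paralog stood higher.

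Within the Rbfox family, *Rbfox3* to *Rbfox2* was -2.58 and -2.70 with FGF2 and -2.28 and -2.33 without. *Rbfox3* to *Rbfox1* was -0.30 and -0.35 with FGF2 and 0.18 and 0.07 without, so that *Rbfox3* had fewer counts than *Rbfox1* with FGF2 and more without. *Rbfox1* to *Rbfox2* differed by 0.11 and *Elavl4* to *Elavl2* by 0.10, the latter with overlapping groups. With 2 libraries against 2, the exact two-sided permutation test cannot give a p below 0.333. That was the p of 5 of the 6 ratios (0.4 after adjustment over 6), and it was 0.667 for *Elavl4* to *Elavl2*.

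**Figure D3:**
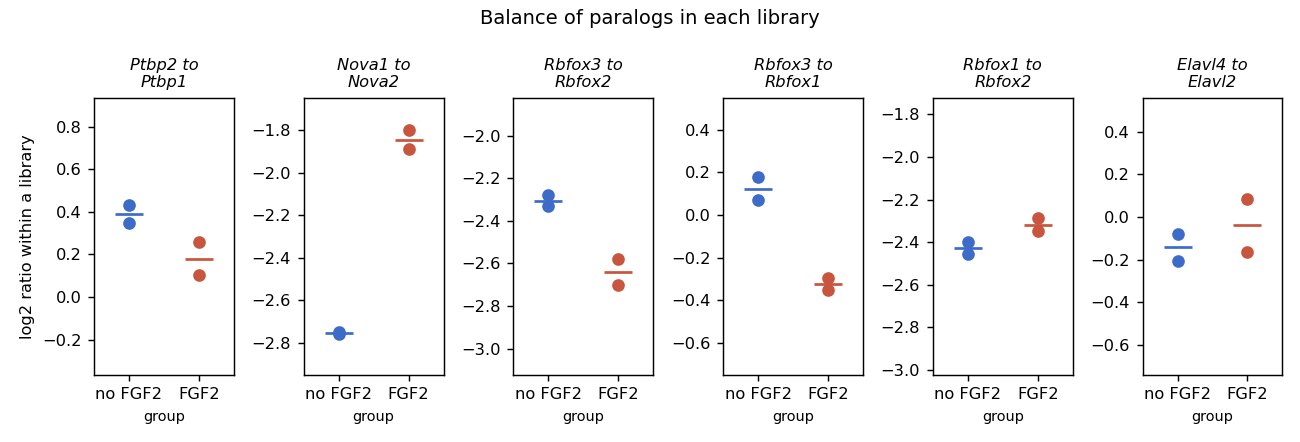
Log2 ratio of the counts of paralogs within each library (points) with group means (bars), without and with FGF2; every panel spans the same range of log2 units. The shift of *Nova1* to *Nova2*, from a mean of -2.75 without FGF2 to -1.84 with it, is the largest of the 6.

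To compare levels between genes, CPM was divided by the length of the union of a gene's exons in kilobases. Without FGF2 *Rbfox2* stood highest at 65.7 ± 0.9 CPM per kb (SD, n = 2), followed by *Nova2* at 40.2, *Ptbp1* at 24.4, *Rbfox1* at 22.6, *Rbfox3* at 18.6, *Ptbp2* at 16.5, *Srrm4* at 12.1, *Elavl4* at 9.43, *Elavl2* at 6.75 and *Nova1* at 5.70. With FGF2 *Rbfox2* was again first at 44.3 ± 1.3 CPM per kb, followed by *Ptbp1* at 31.1, *Nova2* at 27.1, *Ptbp2* at 18.2, *Rbfox1* at 16.4, *Rbfox3* at 9.95, *Elavl4* at 7.66, *Nova1* at 7.21, *Srrm4* at 6.34 and *Elavl2* at 5.11. In neither group did neighbours in this order overlap. *Ptbp1* thus passed *Nova2*, and *Srrm4* moved from rank 7 to 9, with FGF2. The order rests on the transcripts assumed. With the longest basic transcript, *Ptbp2* had rank 3 in both groups, at 44.2 with FGF2 and 40.1 without, and neighbours overlapped for *Ptbp1* and *Ptbp2* and for *Elavl2* and *Elavl4* with FGF2, and for *Nova2* and *Ptbp2* and for *Srrm4* and *Elavl2* without.

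Annotated entries on the same strand inside introns gave a second readout at 4 of the genes, those with at least 100 such counts over the libraries. At *Rbfox2*, 3 entries held 24.7 and 22.3 CPM with FGF2 and 23.3 and 21.8 CPM without. The groups overlapped and none of the 3 passed the test (adjusted p = 0.77 to 0.98), whereas the exonic counts fell. At *Srrm4*, 3 entries held 7.71 and 3.56 CPM with FGF2 and 11.4 and 10.7 CPM without. Of the 3, 2 fell, namely Gm42854 (log2 -1.03 ± 0.32, adjusted p = 0.0045) and 4933430H06Rik (log2 -2.31 ± 0.74, adjusted p = 0.0063). Both rest on few counts. Gm42854 had 33 and 14 with FGF2 against 58 and 51 without, and 4933430H06Rik had 2 and 3 against 14 and 15.

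The log2 ratio of exonic to intronic counts of *Rbfox2* was 3.89 and 3.98 with FGF2 and 4.53 and 4.60 without, a difference of -0.63. At *Srrm4* it was 2.92 and 3.83 with FGF2 and 3.22 and 3.26 without, so the groups overlapped. *Ptbp2* overlapped as well, and *Rbfox1* differed by -0.86 on 31 to 61 intronic counts per library. The smallest exact permutation p is again 0.333, reached by *Rbfox1* and *Rbfox2* (0.667 after adjustment over 4). These entries were looked at after the values were seen, and they may be transcripts of their own rather than unspliced RNA, which was not tested.

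**Figure D4:**
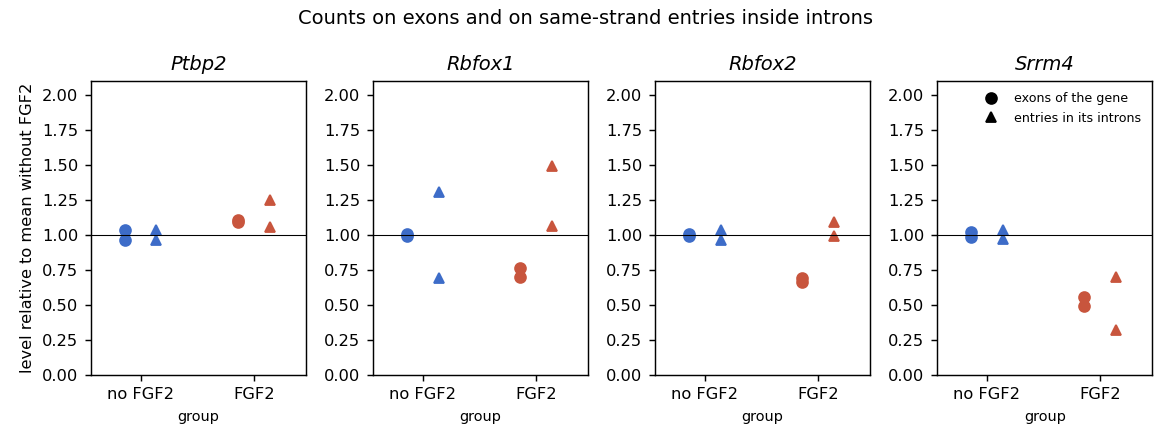
Level of a gene's exons (circles) and of same-strand entries in its introns (triangles) in each library, relative to their mean without FGF2 (line at 1). At *Rbfox2* the circles fall with FGF2 while the triangles of the groups overlap, and at *Srrm4* both are lower.

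Among 12641 genes with a mean of at least 5 CPM, *Nras* (distance 0.008 between centred log2 profiles) and *Mynn* (0.017) had the profiles over the 4 libraries most like that of *Ptbp1*. For *Rbfox3* they were *Grip2*, which encodes a scaffold of glutamate receptors (0.030), *Syt7*, a synaptotagmin (0.038), and *Pcdh18*, a protocadherin (0.041). With 4 libraries such a match says little more than that the size and the spread were alike.

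Other regulators of neural RNA processing also moved in both directions. Of a list of 30, 27 were tested, 7 rose, 13 fell and 7 did not pass, with a median log2 fold change of -0.22. Beside this list and those below, 20.7% of all tested genes rose and 19.9% fell at the same threshold. Among those of the list that passed with a mean of at least 5 CPM, *Rbm20* changed most (log2 -1.04). It was at 5.28 ± 1.42 CPM with FGF2 and 10.8 ± 1.3 without. *Celf5* followed (150.2 ± 12.1 and 266.9 ± 13.2 CPM, log2 -0.83). Then came *Srrm3*, the paralog of *Srrm4* that also promotes microexons (27.0 ± 1.4 and 47.5 ± 0.5 CPM, log2 -0.81 ± 0.10, adjusted p = 6.0e-14). *Mbnl3*, at 0.89 and 1.88 CPM, changed by -1.06 and did not pass. Further paralogs of the regulators, picked out of the list after their values were seen, were *Ptbp3* (log2 0.65 ± 0.09; adjusted p = 7.8e-11), *Elavl3* (log2 -0.41 ± 0.05; adjusted p = 6.7e-17) and the broadly expressed *Elavl1* (log2 -0.25 ± 0.05; adjusted p = 1.2e-05). *Ptbp3* rose like *Ptbp1*, and *Elavl3* fell like *Elavl2* and *Elavl4*.

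Among genes tied to the regulators by textbook knowledge, *Rest*, the repressor of neuronal genes whose splicing Srrm4 alters, rose from 32.9 ± 1.8 to 52.3 ± 1.8 CPM (log2 0.67 ± 0.10; adjusted p = 5.2e-11). *Qk*, a glial splicing regulator, rose from 994.8 ± 26.6 to 1557 ± 83.6 CPM (log2 0.65 ± 0.03; adjusted p = 2.7e-88). Both were picked after their values were seen. Of 4 host genes of miR-124 and miR-9, those of miR-124 fell, *Mir124a-1hg* by 0.55 and *Mir124-2hg* by 0.41 on the log2 scale (adjusted p = 2.4e-24 and 2.8e-04), and those of miR-9 did not pass (*Mir9-3hg* log2 0.04 and C130071C03Rik log2 -0.02). *Esrp1*, *Esrp2* and *Raver1* were listed at 0 counts in every library, *Raver1* being overlapped by another gene on its strand.

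The general splicing factors had medians near 0. Of all tested genes 20.7% rose and 19.9% fell at the same threshold. Of 15 SR proteins 3 rose, 3 fell and 9 did not pass (median log2 -0.04), led by *Srsf12* (log2 -0.36), *Srsf5* (0.33) and *Srsf2* (-0.28). Of 18 hnRNP proteins 5 rose, 5 fell and 8 did not pass (median -0.03). Those that passed were led by *Hnrnph2* (0.42), *Hnrnpf* (0.41) and *Pcbp2* (0.31). *Hnrnpd* changed more, downward (-0.63 ± 0.26), but did not pass (adjusted p = 0.24). The counts of both lists depend on single libraries and on the tool and threshold. Those of SR proteins that rose went to 5 without FGF2 replicate 1 and to 1 without FGF2 replicate 2 or no-FGF2 replicate 1, and those that fell to 1 without no-FGF2 replicate 1. Those of hnRNP proteins that rose went to 3 without either no-FGF2 library, and those that fell to 1 without no-FGF2 replicate 1 and 3 without replicate 2. With DESeq2 1 SR protein rose and 1 fell, and 3 hnRNP proteins rose and 1 fell. At an adjusted p of 0.01 in edgeR 1 SR protein and 2 hnRNP proteins fell, and with no expression filter 1 SR protein fell.

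Of 23 textbook targets of the regulators, 16 fell, 1 rose and 6 did not pass (median log2 -0.29). Those that fell included the calcium channel gene *Cacna1b* (log2 -0.70 ± 0.05; 153.5 ± 1.1 CPM with FGF2 and 249.8 ± 11.7 without) and the reelin receptor gene *Lrp8* (-0.63 ± 0.05; 209.7 ± 4.7 and 324.7 ± 4.9 CPM). *Agrn*, whose neuronal exons are a known Nova target, was the gene that rose (0.47 ± 0.04). The list shares *Gap43*, *Mapt* and *Snap25* with the pan-neuronal markers, and gene counts do not show how these transcripts were spliced.

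**Figure D5:**
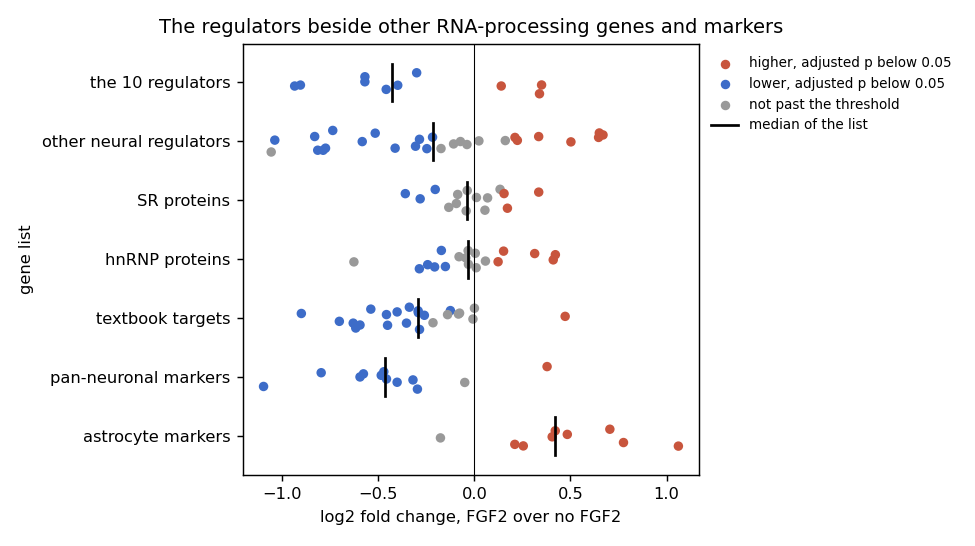
Log2 fold change (FGF2 over no FGF2) of the tested genes of 7 lists; red and blue points passed an adjusted p of 0.05 upward and downward, grey points did not, and black bars are medians. The medians of the SR and hnRNP proteins lie near 0, those of the regulators, their targets and pan-neuronal markers below it and that of astrocyte markers above it.

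Markers of the cell types in the cultures moved with FGF2 beside the regulators. Of 12 pan-neuronal markers 10 fell and 1, *Nefl*, rose (median log2 -0.46), and their summed level was 4460.9 to 4603.5 CPM with FGF2 and 6505.3 to 6509.9 CPM without. Excitatory markers fell in 4 of 8 (297.0 to 302.0 against 415.1 to 419.3 CPM in sum) and inhibitory markers in 8 of 8 (666.5 to 675.8 against 1106.8 to 1135.1 CPM). Astrocyte markers rose in 8 of 9 (12577.7 to 12707.8 against 7678.5 to 7726.3 CPM) and oligodendrocyte lineage markers in 9 of 9 tested of 10 (1864.1 to 1872.9 against 559.6 to 568.7 CPM). Of 7 progenitor markers 3 rose and 2 fell (median log2 -0.42), and their summed level, 2108.3 to 2118.0 against 1273.0 to 1326.6 CPM, was mostly that of *Vim* (1575 ± 6.89 against 673.6 ± 13.6 CPM), which astrocytes also express. Of 6 proliferation markers 5 fell (191.8 to 194.6 against 254.4 to 256.8 CPM). Microglial markers (2 of 3 tested rose), meningeal and mural markers (2 rose and 2 fell of 6 tested) and endothelial markers (1 rose and 1 fell of 3 tested, with *Cldn5* at 0) summed to at most 14.8, 66.3 and 9.9 CPM in any library. The part of these shifts in the results for the regulators was not tested.

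The log2 fold change of *Srrm4* minus the pan-neuronal median was -0.47, and that of *Rbfox3* was -0.44. Of the 12 pan-neuronal markers only *Tubb3* (log2 -1.10) fell more than these genes. Markers of neuron subtypes included larger falls. Log2 fold changes ran from -1.57 to -0.39 among the 8 inhibitory markers (median -0.69). Among the 8 excitatory markers they ran from -1.07 to 0.07 (median -0.47). *Nova2*, *Rbfox2*, *Rbfox1*, *Elavl2* and *Elavl4* differed from the pan-neuronal median by -0.11 to 0.16. *Ptbp2* lay 0.60, *Nova1* 0.80 and *Ptbp1* 0.81 above it. From the astrocyte median of 0.42, *Nova1* differed by -0.08 and *Ptbp1* by -0.07. These differences from a median were not tested.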

How the data were processed

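The authors dissociated and cultured P0 mouse PFC, prepared total RNA libraries, mapped paired reads to mm10 with HISAT2 2.1.0, kept reads above mapping quality 20 with Samtools and counted them per gene with HTSeq 0.11.2 (versions per the submitters' processing notes). The deposited values are raw counts per gene, without normalization. The annotation release and strand setting are not given in the sources used here. The mapping quality filter removes reads that fit several places, so stretches shared with copies are undercounted. No-feature read pairs were 43.2% to 45.9% of tallied pairs.

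Counts of 55421 genes (55240 matched to GENCODE M21, which gave names, mm10 coordinates and lengths) were tested with edgeR 4.0.16 (R 4.3.3): TMM scaling, the default expression filter (17144 genes kept), robust quasi-likelihood fit of FGF2 against no FGF2, and Benjamini-Hochberg adjustment over all tested genes. The SE is the log2 fold change divided by the square root of F. BLAST 2.17.0 compared member transcripts with other genes. Replicates of a group differed by more than sampling noise (chi-square per degree of freedom 2.28 with and 1.76 without FGF2).

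Named genes are all 10 regulators, the 3 largest changes per list of RNA-processing genes among those called with a mean of at least 5 CPM, and the 3 nearest profiles of *Ptbp1* and *Rbfox3*; a few genes this rule selects are not reported here. The members and lists were chosen with earlier results of these data known. Alternatives were RLE, total count and upper quartile scaling, no filter, at least 10 counts in every library, DESeq2 1.42.0, limma-voom (limma 3.58.1), the replicate number as a block, each library left out and a threshold of 0.01. The lengths of the longest basic transcripts, the exon to intron ratios and the counts per list under each alternative were added after seeing the data. Human samples were not analysed here.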

Additional observations from a re-analysis of the deposited data

How the results depend on the processing

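No regulator changed direction under the 12 alternatives, and 8 of 10 kept their call at an adjusted p of 0.05. *Elavl4* lost its call with DESeq2 (adjusted p = 0.1, log2 range -0.34 to -0.27) and *Ptbp2* lost it under 6 alternatives (log2 0.08 to 0.19, adjusted p up to 0.45), and the cause was not tested. DESeq2 called 4007 of 17252 genes where edgeR called 6949 of 17144, and called 2 regulators higher and 6 lower. With 1 library left out, 2 or 3 regulators were higher and 7 lower. With the replicate block, 6814 genes and all 10 regulators were called. Over all tested genes, same-numbered libraries did not deviate together (correlation 0.0021). With 2 libraries a group this cannot show whether the number pairs them, and the labels do not say. With 2 libraries a group, spread is poorly known, and changes as small as that of *Ptbp2* are at the limit.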
